A study of Mus musculus with 6 samples.

Results

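The retinoid metabolism genes described here were Rbp4, Stra6, Lrat, Adh1, Aldh1a1, Aldh1a2, Aldh1a3, Crabp1 and Crabp2, 9 of the 54532 genes in the count table, taken by symbol in the GENCODE M21 annotation. They were measured by RNA-Seq in epididymal fat, the visceral depot beside the epididymis, of male C57BL/6J mice without drug treatment (the label reads untreatment). Normal diet (ND, 4.5% fat) or high-fat diet (HFD, 60% fat) was given from 4 weeks of age for 16 weeks, so that the mice were 20 weeks old, and each diet had 3 libraries. The sources used here do not say whether a library is 1 mouse or a pool, so the p-values measure only the spread between these samples, which may be technical.

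Retinol, the alcohol form of vitamin A, is carried in blood by retinol-binding protein and stored in cells as an ester. Cells oxidise it first to retinal and then to retinoic acid, which binds nuclear receptors (RAR, paired with RXR) and changes transcription, and CYP26 enzymes break retinoic acid down. Fat is a retinoid store, adipocytes secrete retinol-binding protein, and retinal and retinoic acid are known to influence adipocyte differentiation and lipid use.

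Count totals lay between 16996896 and 18859320 per library, and 3 counts, used as the floor, correspond to between 0.150 and 0.181 CPM (the count relative to the TMM-scaled library size). The floor allows for counting error alone. The fat label was checked against 10 adipocyte markers such as Adipoq, whose summed CPM was 24721 to 31613 on ND and 5224 to 17243 on HFD. This sum leans on Cfd, with a mean CPM of 13634 on ND and 1275 on HFD. Taken singly, 5 of the 10 markers had every HFD library below every ND library, as did 19.1% of all genes tested. The summed CPM of 11 macrophage markers was 1764 to 1859 on ND and 3784 to 8403 on HFD. ND replicate 3 stood apart in markers of other tissues. It held 1786 counts of 8 epithelial markers, against 156 to 213 in each of the other 5 libraries, and 2146 counts of 5 motile cilium markers, against 46 to 97. In fat, fewer cells of a type and less RNA per cell cannot be told apart.

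The genes fell into 3 levels. Rbp4, Adh1 and Aldh1a1 were abundant, Aldh1a2 and Aldh1a3 were moderate, and Stra6, Lrat, Crabp1 and Crabp2 were close to or at 0 in nearly every library. On HFD, Rbp4, Adh1 and Aldh1a1 had lower means than on ND, by 1.83-fold, 1.58-fold and 1.62-fold in the fit, whereas Aldh1a2 and Aldh1a3 lay within 0.13 of 0 on the log2 scale. None of the 9 genes passed an adjusted p-value of 0.05 in edgeR's quasi-likelihood test, and 2 of the 5 that could be tested had an unadjusted p under 0.05 (Adh1 and Aldh1a1). The same 2 genes were called by DESeq2, and 0 by limma-voom. Among all 15751 genes tested, 15.9% passed the adjusted threshold (6.04% lower on HFD), and 34.0% had an unadjusted p under 0.05.

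The stretches before the start sites of 4 of these genes are shown. The levels of 3 of them, Rbp4, Adh1 and Aldh1a1, had a common order over the HFD libraries. This order was that of 28.2% of all genes tested. Aldh1a2 did not have it, with 22.6, 22.3 and 18.3 CPM in HFD replicates 1, 2 and 3. The stretches come from RefSeq, build GRCm38.p6, in which 7 of the 9 genes had an entry, and Aldh1a3 and Crabp2 did not. Of the 250 bases before a start site, the longest run outside annotated exons is printed, 5′ to 3′ on the strand of the gene. The runs are chr19:38124829-38124954 (minus strand) for Rbp4, chr3:138277335-138277493 (plus strand) for Adh1, chr19:20601718-20601960 (plus strand) for Aldh1a1 and chr9:71215539-71215788 (plus strand) for Aldh1a2. Rbp4 and Aldh1a1 each have a further start site in RefSeq, which is not printed. These further sites lie 40 (Rbp4) and 132 (Aldh1a1) bases from the gene start in GENCODE, and neither motif marked below was found before them. The printed sites lie 470 (Rbp4), 16594 (Adh1) and 109253 (Aldh1a1) bases from the gene start. Capitals mark TATAAA, the TATA box, in Rbp4 and the octamer ATGCAAAT in Aldh1a1 and Aldh1a2.
Rbp4: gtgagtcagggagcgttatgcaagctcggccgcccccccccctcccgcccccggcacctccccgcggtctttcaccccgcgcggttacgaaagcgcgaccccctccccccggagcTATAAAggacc
Adh1: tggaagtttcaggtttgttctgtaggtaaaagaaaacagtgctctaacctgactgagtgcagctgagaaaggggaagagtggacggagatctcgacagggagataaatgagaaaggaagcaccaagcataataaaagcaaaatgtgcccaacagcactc
Aldh1a1: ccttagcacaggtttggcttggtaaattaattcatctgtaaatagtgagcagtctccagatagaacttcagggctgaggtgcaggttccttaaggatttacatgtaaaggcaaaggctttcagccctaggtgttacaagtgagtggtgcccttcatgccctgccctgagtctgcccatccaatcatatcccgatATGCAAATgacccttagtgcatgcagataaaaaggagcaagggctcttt
Aldh1a2: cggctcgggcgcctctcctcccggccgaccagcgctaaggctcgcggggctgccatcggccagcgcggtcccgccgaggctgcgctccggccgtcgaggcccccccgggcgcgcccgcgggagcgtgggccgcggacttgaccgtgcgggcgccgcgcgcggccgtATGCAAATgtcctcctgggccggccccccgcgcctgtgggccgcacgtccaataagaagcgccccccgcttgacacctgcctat
The TATA box of Rbp4 began 28 bases before the start site, and TATAAA was found on either strand in 12.4% of the 32851 stretches of 250 bases in the RefSeq table. The octamer, which was picked after the sequences had been seen, began 56 bases before the start site of Aldh1a1 and 84 bases before that of Aldh1a2, and 1.60% of all stretches held it. None of the stretches of Rbp4 and Adh1 held it. AGGTCA, the hexamer that retinoid and related nuclear receptors bind, was in 14.0% of all stretches and in none of the 12 stretches of the 7 genes with an entry. Its direct repeats AGGTCANAGGTCA and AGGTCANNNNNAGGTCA, searched on both strands, were in 0.0335% and 0.00913% of all stretches and in none of these 12. The absence of a match says only that these letters are not in the window. The CCAAT box was searched too, was in 33.8% of all stretches and is not capitalised. It began 72 bases before the start site of Aldh1a1 and 36 bases before that of Aldh1a2. Stra6 and Lrat also held it, as did Rbp4 before the site that is not printed.

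Rbp4 (ENSMUSG00000024990, chr19:38116629-38125281 of GRCm38) encodes the retinol-binding protein of blood, which adipocytes as well as the liver release. It was the most abundant of the 9 genes in every library and ranked between 79 and 731 among all genes by FPKM (fragments per kilobase of gene and per library size, a level per length). On ND its FPKM was 323, 483 and 257, and on HFD it was 167, 331 and 75.1. HFD replicate 2 lay above 2 of the 3 ND libraries and HFD replicate 3 was far below all others, so the diets overlapped. Mean FPKM was 354 ± 117 (SD, n = 3) on ND and 191 ± 130 (n = 3) on HFD. The log2 fold change on counts was -0.88 ± 0.51 (SE), with a 95% interval from -2.07 to 0.31 and an adjusted p of 0.268 by edgeR's quasi-likelihood test.

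Stra6, the cell-surface receptor that takes up retinol from its binding protein, was barely detected. The ND libraries held 9, 5 and 14 counts and the HFD libraries 4, 2 and 2. Each ND library was above each HFD library, as was the case for 19.1% of all genes tested, but the counts were too low for the filter and no fold change is given. Lrat, which esterifies retinol for storage, was found with 0, 0 and 8 counts on ND and with 1, 0 and 0 on HFD. The 8 counts were in ND replicate 3, the library with the epithelial and ciliary markers, and their part in the value was not tested.

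**Figure D1:**
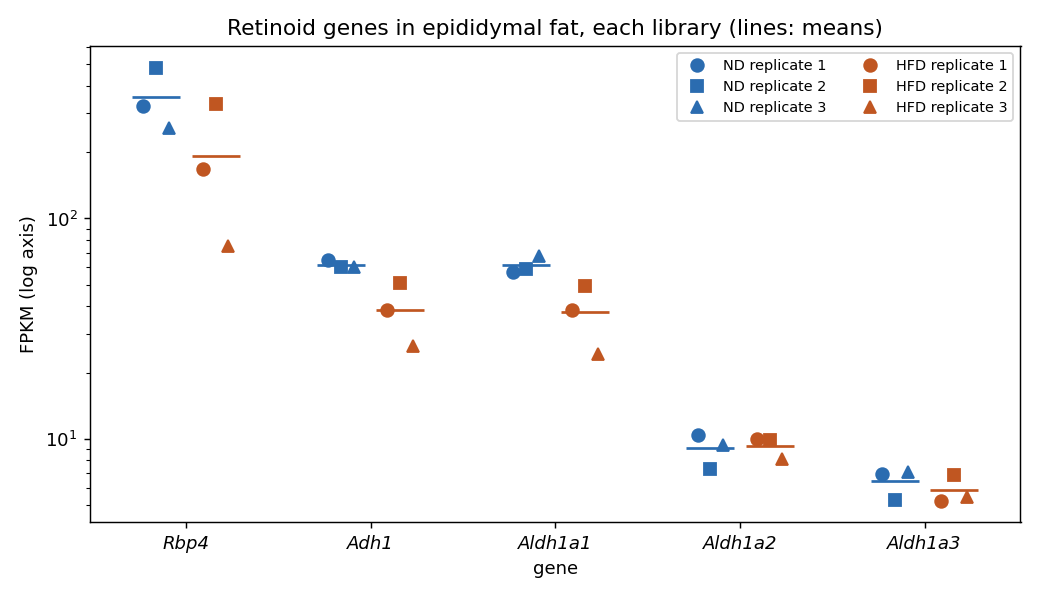
FPKM (log axis) of the 5 retinoid genes that passed the filter on low counts, with 1 point per library, marker shape by replicate and a line at the mean of each diet. The diets are apart for Adh1 and Aldh1a1, as they are by CPM for 40.9% of all genes tested in either direction. For Rbp4 the second HFD library, at 331, lies among the ND libraries.

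Adh1 (ENSMUSG00000074207, chr3:138260991-138290698) encodes a cytosolic alcohol dehydrogenase that oxidises retinol to retinal, and ethanol as well. Its counts were 2622, 2278 and 2692 on ND and 1560, 1885 and 1023 on HFD. The ND libraries lay close together, at an FPKM of 61.8 ± 2.40 (SD, n = 3). All HFD libraries were below them, at 38.6 ± 12.3 (n = 3), as was the case by CPM for 19.1% of all genes tested. The log2 fold change was -0.66 ± 0.23 (SE), with a 95% interval from -1.20 to -0.13, an unadjusted p of 0.0211 and an adjusted p of 0.0870 by edgeR's quasi-likelihood test. With DESeq2's Wald test the adjusted p was 0.0386. Adh1 shares 136 exonic bases with the antisense gene Gm16559, and the strand setting of the counting is not given in the sources used here.

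Aldh1a1 (ENSMUSG00000053279, chr19:20492715-20643465) encodes a retinal dehydrogenase, the step that makes retinoic acid, and is the form known to be abundant in adipocytes. Its counts were 5146, 4923 and 6668 on ND and 3472, 4043 and 2078 on HFD, with no overlap between the diets. Of the 5 tested genes, 2 had diets that did not overlap by CPM, Adh1 and Aldh1a1, both lower on HFD. The same held for 40.9% of all genes tested in either direction, and for 19.1% lower on HFD. The FPKM of Aldh1a1 was 61.4 ± 5.62 (SD, n = 3) on ND and 37.5 ± 12.7 (n = 3) on HFD. These means are near those of Adh1, 61.8 and 38.6, and the 2 genes were not compared by a test. The log2 fold change was -0.70 ± 0.26 (SE), with a 95% interval from -1.30 to -0.10, an unadjusted p of 0.0287 and an adjusted p of 0.105 by edgeR's quasi-likelihood test, against 0.0406 by DESeq2. DESeq2 called 19.1% of its 18952 genes, 8.42% lower on HFD.

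These calls moved with the test, as given above for DESeq2, and with the libraries included. Without HFD replicate 2, edgeR's quasi-likelihood test gave adjusted p-values of 0.0379 for Rbp4, 0.0129 for Adh1 and 0.0246 for Aldh1a1, with log2 fold changes of -1.53, -0.91 and -0.95. In that fit 9.65% of all genes tested were called lower on HFD at an adjusted p under 0.05. The log2 fold changes were nearer to 0 without HFD replicate 3, at -0.51 for Rbp4, -0.47 for Adh1 and -0.48 for Aldh1a1, and that of Rbp4 was -0.59 without ND replicate 2. None of the 9 genes passed in the other 5 fits that each left out 1 library.

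Aldh1a2 (ENSMUSG00000013584, chr9:71215789-71296243) encodes a further retinal dehydrogenase, known from embryonic and mesothelial cells. Its counts were 430, 280 and 425 on ND and 413, 371 and 317 on HFD, and the HFD libraries fell within the ND range. FPKM was 9.06 ± 1.59 (SD, n = 3) on ND and 9.34 ± 1.09 (n = 3) on HFD. The log2 fold change was 0.06 ± 0.17 (SE), with a 95% interval from -0.35 to 0.46 and an adjusted p of 0.845 by edgeR's quasi-likelihood test, and it had the other sign without ND replicate 2 (-0.076) or HFD replicate 1 (-0.027).

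Aldh1a3 (ENSMUSG00000015134, chr7:66390890-66427517) encodes the third enzyme of this family. Its counts were 582, 413 and 655 on ND and 442, 522 and 437 on HFD, with the second ND library below all HFD libraries. FPKM was 6.45 ± 1.01 (SD, n = 3) on ND and 5.86 ± 0.865 (n = 3) on HFD. The log2 fold change was -0.13 ± 0.17 (SE), with a 95% interval from -0.52 to 0.27 and an adjusted p of 0.633 by edgeR's quasi-likelihood test. Aldh1a2 was above Aldh1a3 by FPKM in 6 of 6 libraries.

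As FPKM is per length, the 3 Aldh1a genes could be set side by side. Their summed FPKM was 76.9 ± 6.63 (SD, n = 3) on ND and 52.7 ± 14.3 (n = 3) on HFD (two-sided exact permutation p = 0.1). Aldh1a1 made up 76.7%, 82.4% and 80.4% of the sum on ND and 71.7%, 74.7% and 64.2% on HFD, so that every HFD share was below every ND share. Its mean share was 79.8% ± 2.87 (SD) on ND and 70.2% ± 5.41 on HFD, a difference of -9.64 percentage points. Aldh1a2 took 11.8% ± 1.96 on ND and 18.3% ± 3.21 on HFD, and Aldh1a3 8.37% ± 0.946 and 11.5% ± 2.56. The difference for Aldh1a2 was 6.51 percentage points, and 3.60 on counts with no length correction. For Aldh1a3 it was 3.13 percentage points, and 1.66 without HFD replicate 3. For each of the 3 shares the two-sided exact permutation test gave p = 0.1 (0.1 after adjustment over the 3), which is the smallest value 3 libraries against 3 can give, so the threshold of 0.05 could not be reached. The shares are not independent, since they add up to a whole. Aldh1a7, a near copy of Aldh1a1 on chromosome 19 (chr19:20692953-20727562) with which reads may be split uncertainly, was not in this sum. With Aldh1a7 added after the data had been seen, the difference in the Aldh1a1 share became 2.14 percentage points, the opposite sign.

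**Figure D2:**
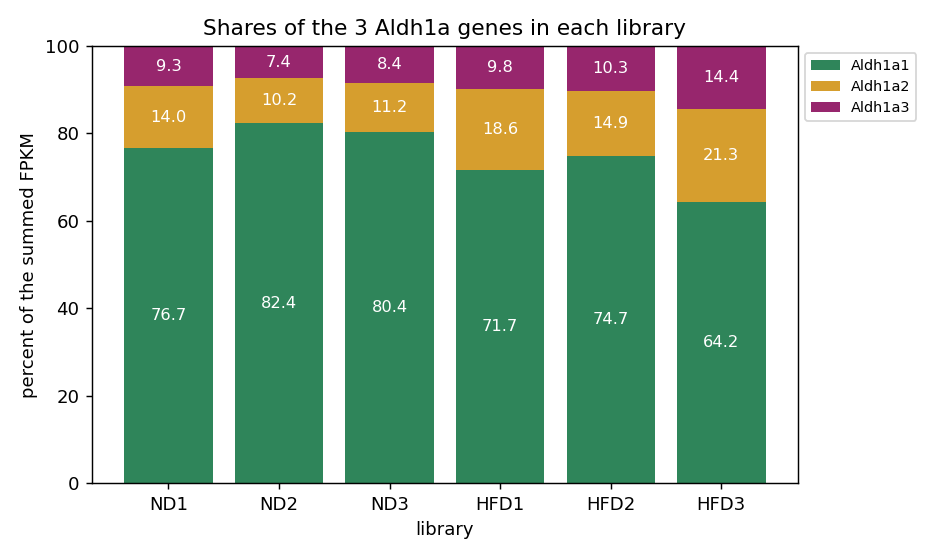
Percent of the summed FPKM of Aldh1a1, Aldh1a2 and Aldh1a3 taken by each gene, with 1 stacked bar per library. Aldh1a1 takes 76.7% to 82.4% in the ND libraries and 64.2% to 74.7% in the HFD libraries.

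Crabp1 and Crabp2 encode small cytosolic proteins that bind retinoic acid, and Crabp2 is known to hand it to the nuclear receptors. Crabp1 had 139 counts in ND replicate 3, an FPKM of 8.70, and 0 counts in the other 5 libraries, each of which allows up to 3 counts. Crabp2 had 2 counts in ND replicate 3, 3 counts in HFD replicate 2 and 0 in the remaining libraries. No fold change is given for either gene, since Crabp1 was present in 1 library alone and Crabp2 was at or under the floor throughout.

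**Figure D3:**
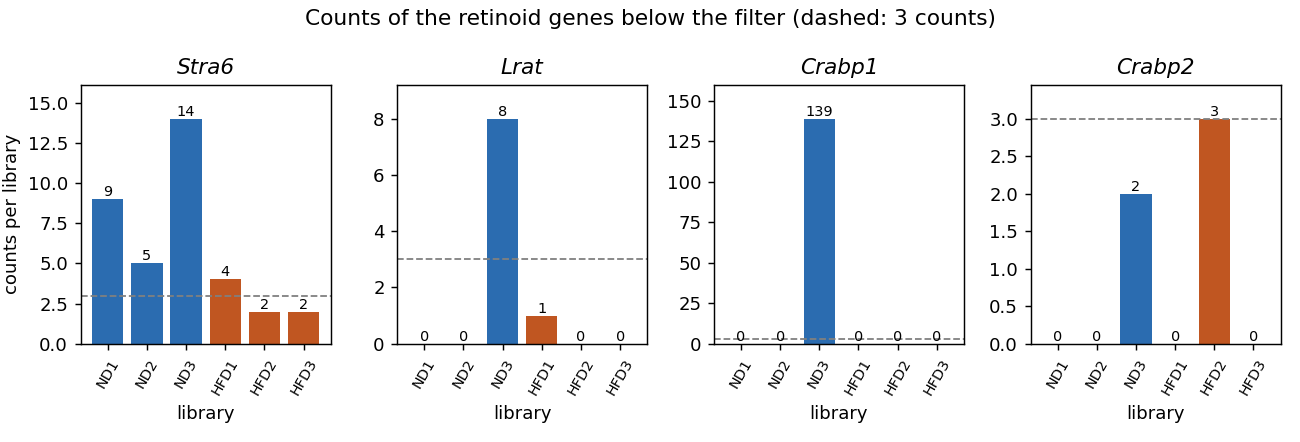
Counts per library (linear axes from 0, a different scale in each panel) of the 4 retinoid genes below the filter, with a dashed line at 3 counts. Crabp1 has all of its 139 counts and Lrat 8 of its 9 in ND replicate 3.

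Rbp4, Adh1 and Aldh1a1 had the same order within the HFD group, with replicate 2 above replicate 1 above replicate 3. All 10 adipocyte markers had this order, as did 28.2% of all genes tested, and the 11 macrophage markers all had the reverse order, as did 32.3%. The log2 fold changes of the 10 adipocyte markers had a median of -0.78 (4 passed the test, all lower, as 6.04% of all genes were), beside -0.88, -0.66 and -0.70 for the 3 retinoid genes and a median of 0.01 over all genes. Of the macrophage markers 8 of 11 were called higher on HFD, as were 9.85% of all genes, and of the 11 mesothelial and 10 progenitor markers none passed (by edgeR's quasi-likelihood test, 1 and 0 at an unadjusted p under 0.05, which held for 34.0% of all genes). The part of these cell types in the retinoid values was not tested.

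**Figure D4:**
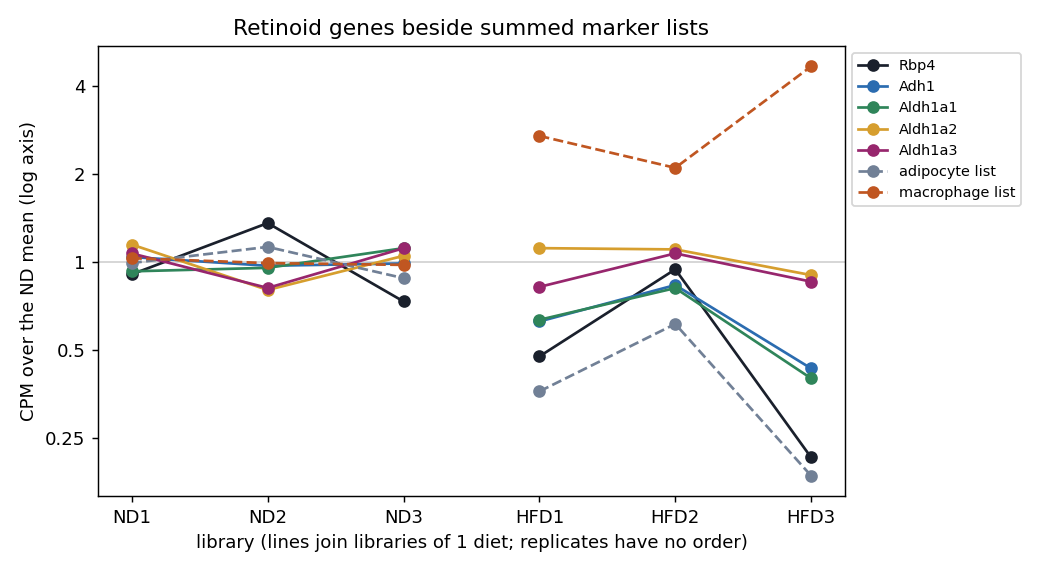
CPM of 5 retinoid genes (solid) and summed CPM of 10 adipocyte and 11 macrophage markers (dashed), divided by the ND mean, on a log axis for each library. On HFD, Rbp4, Adh1 and Aldh1a1 are highest in replicate 2 and lowest in replicate 3 like the adipocyte list, whereas the macrophage list is highest in replicate 3. Cfd has the highest mean CPM of the adipocyte list on ND, at 13634.

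Over the 6 libraries, the pattern of log2 CPM of each gene was set against 99 genes of the written lists by Pearson's r, as a description only, since the libraries share depth, diet and cell makeup. Rbp4 was most like Lipe (r = 0.985), the hormone-sensitive lipase, and Adipoq (0.982), which encodes adiponectin. Adh1 was most like Cfd (0.982), which encodes the adipocyte factor adipsin, and Ces1d (0.980), a carboxylesterase. Aldh1a1 was most like Zbtb46 (0.985), a transcription factor of dendritic and endothelial cells, and Adrb3 (0.968), the beta-adrenergic receptor of adipocytes. Aldh1a2 was most like the matrix gene Dcn (0.934) and the mesothelial marker Gpm6a (0.920). Aldh1a3 was most like Adh7 (0.910), an alcohol dehydrogenase of low counts.

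Around these genes, 46 further retinoid genes were listed, of which 32 had enough counts to be tested. At an adjusted p of 0.05 in edgeR's quasi-likelihood test, 3 of them were higher on HFD (Stra6l, Dhrs9 and Dhrs3) and 3 were lower (Aldh1a7, Dgat1 and Rdh10), where 9.85% and 6.04% of all genes were called. The median log2 fold change of the 32 was -0.21, against 0.01 over all genes. The HFD order of the adipocyte markers was found in 14 of the 32, Rdh10 and Dgat1 among them, and in 28.2% of all genes tested. The order of the macrophage markers was found in 11 of the 46 listed, and in 32.3% of all genes tested. The 46 include 14 genes with too few counts to be tested, so these shares are not like for like.

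Stra6l, a Stra6-like receptor known to take up retinol bound to its carrier, rose from 4, 3 and 23 counts on ND to 269, 131 and 388 on HFD. By FPKM it was above Stra6 in every HFD library, at 1.54, 0.829 and 2.34 against 0.0377, 0.0208 and 0.0198. Its log2 fold change was 4.81 ± 0.72 (SE, adjusted p = 0.0098 by edgeR's quasi-likelihood test). Dhrs9, a short-chain dehydrogenase that oxidises retinol, rose from 45, 41 and 52 counts to 908, 337 and 1680, a log2 fold change of 4.49 ± 0.58 (adjusted p = 0.0073). Without ND replicate 3, which held 23 of the ND counts of Stra6l, its log2 fold change was 6.17, and it was 1.24 by limma on log2(FPKM + 1), a scale that understates the change of low genes. That of Dhrs9 was 3.80 without HFD replicate 3 and 2.92 by limma on log2(FPKM + 1). Both genes passed in each of the 6 fits that left out 1 library. Both were highest in HFD replicate 3 and lowest in HFD replicate 2, the order of the macrophage markers and of 32.3% of all genes tested. Dhrs3, also called higher, had this order too.

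Dhrs3, which reduces retinal back to retinol and is a known retinoic acid target, was counted 2926, 3057 and 2726 times on ND and 5150, 4592 and 6083 times on HFD. The diets were far apart, and the log2 fold change was 0.95 ± 0.16 (SE, adjusted p = 0.0133 by edgeR's quasi-likelihood test), although the adjusted p was 0.0522 to 0.0670 without ND replicate 1, ND replicate 3 or HFD replicate 1. Rdh10, which catalyses the opposite step from retinol to retinal, fell from 429, 383 and 436 counts on ND to 234, 248 and 195 on HFD. Its log2 fold change was -0.79 ± 0.15 (adjusted p = 0.0165 by edgeR), and 0.0618 to 0.0765 without ND replicate 1, ND replicate 2 or HFD replicate 1. Dhrs9, which oxidises retinol as Rdh10 does, was called in the other direction.

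Aldh1a7 fell from 2566, 4201 and 2347 counts on ND to 1187, 1468 and 1154 on HFD. Its log2 fold change was -1.18 ± 0.29 (SE, adjusted p = 0.0351 by edgeR's quasi-likelihood test), with 0.0649 to 0.128 when ND replicate 1, ND replicate 2, HFD replicate 1 or HFD replicate 3 was left out. Dgat1, which makes triglyceride and can also esterify retinol, fell from 4674, 5189 and 4794 counts on ND to 2675, 3076 and 1770 on HFD. Its log2 fold change was -0.87 ± 0.23 (adjusted p = 0.0435 by edgeR), with 0.0818 to 0.138 without ND replicate 1, ND replicate 2, ND replicate 3 or HFD replicate 1.

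**Figure D5:**
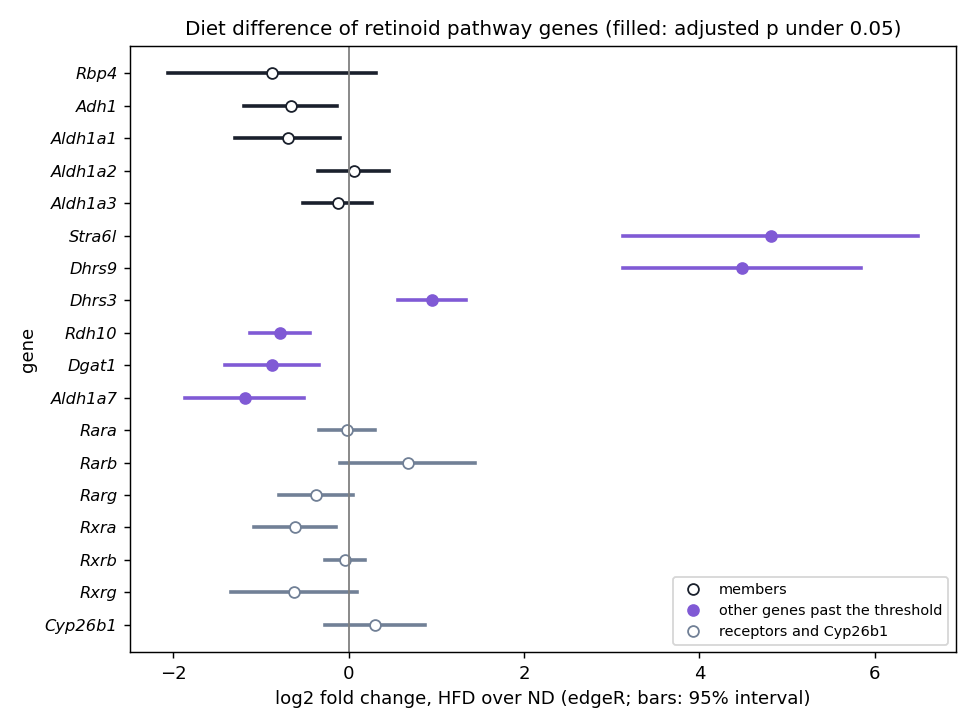
Log2 fold change of HFD over ND (points) with 95% intervals (bars) from edgeR for the 5 tested retinoid metabolism genes, the 6 further retinoid genes past the threshold and 7 receptor and breakdown genes. Filled points have an adjusted p under 0.05, and the widest interval among the first 5 is that of Rbp4.

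The 6 nuclear receptors that bind retinoids all had enough counts to be tested. None passed edgeR's quasi-likelihood test on diet, with 1 (Rxra) at an unadjusted p under 0.05. Of all genes tested, 15.9% passed and 34.0% had an unadjusted p under 0.05. Rara had a log2 fold change of -0.02 (SE 0.14), Rxrb of -0.04 (0.10) and Rarg of -0.37 (0.18). Rxra was the most abundant, with an FPKM of 49.9 ± 4.87 (SD, n = 3) on ND and 32.3 ± 8.16 on HFD, a log2 fold change of -0.61 ± 0.20 (SE) and an adjusted p of 0.0776 by edgeR's quasi-likelihood test (0.0286 by DESeq2, and 0.0145 without HFD replicate 2). Rxrg was at -0.63 ± 0.30 (adjusted p = 0.194 by edgeR, and 0.0284 without HFD replicate 2). Rarb, itself a known target of retinoic acid, had between 18 and 27 counts on ND and between 26 and 42 on HFD (adjusted p = 0.196 by edgeR). It shares 1793 exonic bases with Top2b on the other strand, and the strand setting of the counting is not given. Whether its few counts come from Rarb alone was not tested.

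Of the enzymes that break retinoic acid down, Cyp26b1 had 69 to 81 counts on ND and 70 to 95 on HFD (log2 fold change 0.30 ± 0.25, adjusted p = 0.430 by edgeR's quasi-likelihood test). Cyp26a1 had 7 counts or fewer in each library and was not tested. Among 11 listed targets of retinoic acid, 8 were tested and 1 passed, Dhrs3, where 15.9% of all genes did, and the median log2 fold change of the 8 was 0.22.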

How the data were processed

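RNA-Seq libraries of epididymal fat, 3 from ND and 3 from HFD, were grouped by the sample labels. The sources differ on the upstream steps. The paper's methods name TopHat and Cufflinks on GRCm38, whereas the submitters' processing notes name CASAVA 1.8, fastp, HISAT2 2.0.5, featureCounts 1.5.0-p3, DESeq2 1.20.0 and a human build, although the identifiers are those of mouse genes. The authors deposited raw counts, not normalized, for each gene. FPKM values were deposited by the authors too, each being the count over a gene length and a library factor (checked within 0.1% on the 11492 genes with over 50 counts in every library). Symbols, coordinates and exons come from GENCODE M21 (GRCm38), which holds 54495 of the 54532 identifiers. There were 0 unused sample columns.

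Count totals were 16996896 to 18859320, with a floor of 3 counts. Diets were compared on the counts with edgeR 4.0.16 in R 4.3.3 (quasi-likelihood F-test, robust=TRUE), using TMM, filterByExpr and a model of diet alone, with Benjamini-Hochberg adjustment over all 15751 genes tested and a threshold of 0.05. Standard errors were derived from the F statistic. Shares of FPKM were compared by exact permutation over the 6 libraries with scipy 1.17.1. Alternatives were DESeq2 1.42.0, limma-voom and limma on log2(FPKM + 1) or log2(FPKM + 0.1) (limma 3.58.1), other scalings and filters, a replicate block, and each library left out. The edgeR, DESeq2, limma-voom and limma fits were tried on simulated counts. The permutation of shares, the correlations and the motif search were not.

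The members and lists were chosen with earlier results of these data known. Named genes are all 9 members, each gene of the retinoid and target lists past the threshold (up to 15), the 6 receptors, Cyp26a1 and Cyp26b1, and the 2 listed genes most like each tested member. Single genes of low counts in 1 library were named after their values had been seen. One result under this rule is not reported here.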

Additional observations from a re-analysis of the deposited data

How the results depend on the processing

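The number of the 9 genes called lower on HFD was 0 by edgeR and in 11 of 12 other fits on all 6 libraries. It was 2 with DESeq2's Wald test (Adh1 and Aldh1a1) and 0 to 3 with 1 library left out, where only the fit without HFD replicate 2 made calls. Of the 46 further retinoid genes, 3 were called lower by edgeR, 6 with DESeq2 (Rbp2, Rxra and Scarb1 added), 0 with limma on log2(FPKM + 1) without the filter, and 0 to 6 with 1 library left out. The number was 0 without ND replicate 1, ND replicate 2 or HFD replicate 1, and 6 without HFD replicate 2. Of all genes, DESeq2 called 8.42% lower on HFD, and edgeR 9.65% without HFD replicate 2. Rbp2, which edgeR's filter removed, had 38 of its 42 counts in ND replicate 3. The number called higher, 3, stayed within 2 to 4 in all fits. Over all genes, leaving out 1 library gave 474 calls (without HFD replicate 1) to 3940 (without HFD replicate 2), and limma without the filter gave 649, against 2504. The log2 fold change of Aldh1a2 was 0.06, and -0.076 to 0.17 with 1 library left out. That of Rara was -0.02, and -0.14 to 0.044 with 1 library left out (above 0 without ND replicate 1 or HFD replicate 3). Stra6l missed the threshold with limma on log2(FPKM + 1) without the filter, and Aldh1a7 also with no filter in edgeR. The difference in the Aldh1a1 share became 2.14 percentage points with Aldh1a7 in the sum, an alternative chosen after seeing the data, and that of Aldh1a2 fell from 6.51 to 3.60 on counts with no length correction. The share of Crabp2 in the summed Crabp FPKM could not be computed, since only ND replicate 3 and HFD replicate 2 held any reads of either gene. Same-numbered libraries did not deviate together over all genes (r = -0.0858, -0.0556 and -0.0053), and differently numbered ones had r of -0.0548 to 0.110. Such values cannot tell whether the numbers stand for pairs, for example by cage or by day of extraction. With a replicate block edgeR called 1886 genes in all, 0 of the 9 genes, and 3 higher and 3 lower further retinoid genes, and the adjusted p of Rbp4 was 0.0669. Why the values moved was not tested. Depth limits Stra6, Lrat and Crabp2, whose counts were 14 or fewer in every library.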

Other observations

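Beside Crabp1, further retinoid genes had most of their counts in ND replicate 3. Rdh16, a retinol dehydrogenase, had 331 of its 344 counts in that library and Rbp2, the intestinal retinol-binding protein, 38 of 42. Both were chosen after their values had been seen. The same library held 64.5% of all counts of the 8 epithelial markers and 85.0% of those of the 5 motile cilium markers. Of 8 epididymal markers it held 33 of 87 counts. None of the epididymal markers had enough counts to be tested.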
